A study of Mus musculus with 18 samples.

Results

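The 10 genes described here encode transcription factors of the primitive streak and early mesoderm of the mouse: T (Brachyury), Eomes, Mixl1, Evx1, Gsc, Mesp1, Mesp2, Tbx6, Hand1 and Foxf1. They were chosen by name as known factors, but with earlier results of these data known, so the choice was not blind to the values. The study itself names Eomes, Evx1 and Hand1 among genes higher in its ASCs than in ESCs. All 10 were found among the 35773 genes of the count tables. The study sequenced polyadenylated RNA of mouse pluripotent stem cells kept in 6 culture states, with 3 replicates of each, 18 samples in all. It asked how cells grown in a medium with activin A, BMP4, the GSK3 inhibitor CHIR99021 and LIF, called ABCL, relate to naive and primed stem cells.

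All 18 samples carry the labels wild type and strain 129S2/SvPasCrl, while the methods of the study give crosses of 129/sv females with reporter-carrying males of mixed MF1, 129/sv and C57BL/6J background as the source of its lines. Naive embryonic stem cells (ESCs) were grown in 2i/LIF, in which MEK and GSK3 inhibitors are combined with LIF. AFSCs are primed cells derived from blastocysts in activin A and basic FGF, without feeder cells. The advanced pluripotent stem cells (ASCs) came from AFSCs that survived in ABCL as colonies. The methods of the study describe this for AFSCs with an Oct4 distal enhancer reporter (GOF-GFP), selected as green colonies. A line with a Stella-GFP reporter was also used, and the labels do not say which line was sequenced. ESC-ASCs were 2i/LIF ESCs passaged in the same ABCL medium, and the labels do not say whether the sequenced ESCs were the line that was converted. Epiblast stem cells (EpiSCs) stand for the primed epiblast after implantation, and epiblast-like cells (EpiLCs) for the short-lived state between naive and primed cells. The labels give no sex, passage or culture day. The study counts the 3 replicates of a state as biological ones, but the labels name no separate derivations, so p-values measure the spread between these samples.

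The primitive streak is the region of the gastrulating embryo where epiblast cells leave the epithelium and become mesoderm and definitive endoderm. Nodal and activin, Wnt, BMP and FGF signals start it there. The T-box factors T and Eomes and the homeobox factors Mixl1, Evx1 and Gsc are among the first genes to be switched on, Mesp1, Mesp2 and Tbx6 mark mesoderm that has just formed or is being segmented, and Hand1 and Foxf1 belong to lateral plate and extraembryonic mesoderm. In pluripotent cultures such genes are read as a sign of how near the cells are to leaving pluripotency. Activin, BMP4 and the Wnt agonist CHIR99021 in ABCL are members or mimics of those same inducing signals.

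Total counts per sample ranged from 4961934 to 18071600, and the 3 ESC-ASC samples (17813619 to 18071600) were deeper than all others, of which none exceeded 9906473. Depth and the ESC-ASC state therefore cannot be told apart. In ASCs, AFSCs, EpiLCs and ESCs, replicate 1 stood apart from the other two. The chi-square per degree of freedom between samples, over tested genes, was 18.4 to 84.4 for pairs with replicate 1 of these states and 1.54 to 10.2 for replicates 2 and 3. It was 1.82 to 9.77 for all pairs in EpiSCs and ESC-ASCs. Without those 4 samples, as chosen after the data were seen, 53 of 56 fold changes of the genes described here kept their direction and side of the threshold. Markers followed the labels of the states. The summed level of 6 naive markers was 3817 to 4878 in ESCs, 3808 to 4535 in ASCs and 2819 to 3041 in ESC-ASCs, but at most 121 in EpiLCs, AFSCs and EpiSCs. The summed level of 5 formative and primed markers was 248 to 401 in the first 3 states and 1926 to 4634 in the others. That of Pou5f1, Sox2 and Nanog was 6207 to 12731 throughout, with Pou5f1 at mean levels of 4853 to 8089. Sox2 had a mean of 2329 in ESCs and 76.1 in EpiSCs, and Nanog 4109 in ESCs and 220 in EpiLCs. By the test given below, EpiSCs, AFSCs and EpiLCs each had 2 of these 3 genes lower than ESCs and none higher. Of all tested genes, 22.0%, 19.6% and 15.9% were lower in these comparisons. Neural markers summed to 635 to 692 in ESCs and to 92.7 to 399 elsewhere, but Tubb3 alone had a mean level of 580 in ESCs. Sox10 and Neurog2 had 0 counts there. By the same test, 2 of 7 neural markers were higher in EpiSCs than in ESCs (Nes and Sox10) and 3 lower. Of all tested genes, 19.0% were higher and 22.0% lower in that comparison. A level here is the count divided by the DESeq2 size factor of the sample and by the exonic length of the gene in kb, so levels can be compared between genes. Differences are log2 fold changes (with standard error, SE) from edgeR's quasi-likelihood test over 16901 genes, with Benjamini-Hochberg adjusted p. A gene is called where the adjusted p was below 0.05 and the change was over 1 in size on the log2 scale. Since the samples are bulk cultures, fewer cells that express a gene and less RNA per cell cannot be told apart.

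The test took genes with 10 counts or more in 3 samples or more, which 7 of the 10 genes reached, but not Mesp1, Tbx6 and Foxf1. Hand1 passed this minimum through the 3 ASC samples alone, and Mesp2 through 5 samples that were all from ABCL cultures. Both therefore had to be higher there, so their folds, calls and p-values against other states are given as a description only. Mixl1 passed in 7 samples, which were all those of AFSCs and EpiSCs and replicate 2 of EpiLCs. Its calls for the primed cultures over other states are therefore a description as well. Summed over the 10 genes, the level was 1722 to 1944 in EpiSCs, 260 to 393 in AFSCs, 201 to 236 in ESCs, 114 to 155 in ASCs, 59.5 to 62.2 in ESC-ASCs and 23.5 to 40.4 in EpiLCs. The ranges of the 6 states did not overlap. The sums were made up of different genes, however. Gsc alone gave 82.8% to 88.2% of the sum in ESCs, Eomes 47.6% to 56.1% in AFSCs and 30.8% to 33.2% in ESC-ASCs. In ASCs no gene gave more than 30.9%, and the leading gene was Hand1 in replicates 1 and 3 and Gsc in replicate 2.

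**Figure D1:**
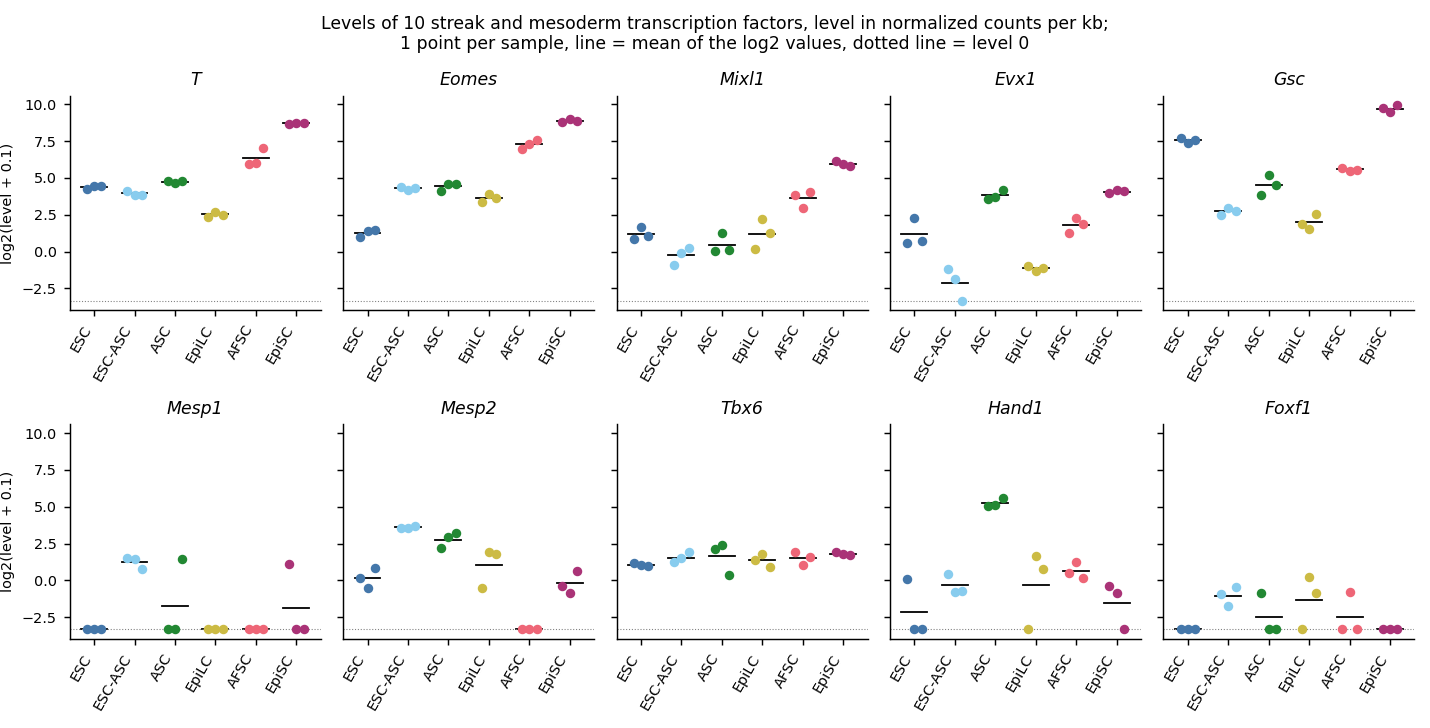
Level of each gene in each sample, on the y axis as log2(level + 0.1) with the level in normalized counts per kb. Each point is 1 sample, colours and x positions mark the 6 states and the line is the mean of the 3 log2 values. T, Eomes, Mixl1 and Gsc are highest in EpiSCs, Hand1 in ASCs and Mesp2 in ESC-ASCs.

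T, the T-box factor needed for posterior mesoderm and the notochord, lies at chr17:8434423-8442496 (GRCm38, plus strand). It had levels of 18.7, 21.6 and 22.2 in the 3 ESC samples, 27.0, 25.6 and 28.0 in ASCs and 17.0, 14.6 and 14.6 in ESC-ASCs. EpiLCs had 4.99, 6.50 and 5.55, AFSCs 62.8, 64.0 and 130, and EpiSCs 400, 426 and 424. The order from EpiSC through AFSC, ASC, ESC and ESC-ASC to EpiLC held without overlap between neighbours, but AFSC replicate 3 stood well above the other AFSC samples. Not all steps passed the test. ASCs exceeded ESCs by 0.33 (SE 0.25, adjusted p = 0.287) and ESCs exceeded ESC-ASCs by 0.47 (SE 0.25, adjusted p = 0.111), neither beyond the spread. The step from ESC-ASCs down to EpiLCs was called, at 1.40 (SE 0.29, adjusted p = 0.00038), in a comparison in which 39.5% of all tested genes were called.

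The T promoter is shown because T is a textbook target of Wnt signalling, which both 2i and ABCL stimulate through GSK3 inhibition. The window of 300 bases (250 before the start and 50 from it on) comes from RefSeq, build GRCm38.p6, chr17:8434173-8434472, plus strand. Capitals mark the letters TCAAAG, the reverse complement of the TCF/LEF word CTTTGA, 234 bases before the start. Searched on both strands, that word occurs in 16.0% of 32851 mouse promoter windows of this length, so a match is a description and not a binding site.
T: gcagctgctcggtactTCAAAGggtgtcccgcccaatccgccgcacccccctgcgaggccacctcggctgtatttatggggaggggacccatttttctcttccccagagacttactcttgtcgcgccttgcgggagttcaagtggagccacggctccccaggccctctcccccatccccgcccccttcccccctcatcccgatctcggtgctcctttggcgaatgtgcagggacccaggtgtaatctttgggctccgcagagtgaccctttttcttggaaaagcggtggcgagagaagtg

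Eomes (chr9:118478212-118486132, plus strand), the T-box factor that works downstream of Nodal in the anterior streak and is also used in trophoblast, was almost silent in ESCs, with levels of 1.90, 2.52 and 2.68. Both ABCL cultures had more, 17.1, 23.5 and 24.0 in ASCs and 20.7, 18.3 and 20.2 in ESC-ASCs. EpiLCs followed with 10.3, 14.9 and 12.4. Every ABCL and EpiLC sample lay above every ESC sample, and the 2 ABCL cultures overlapped. Eomes was higher than in ESCs by 3.11 in ASCs (SE 0.26, adjusted p = 2.24e-08), by 2.99 in ESC-ASCs (SE 0.26, adjusted p = 1.06e-08) and by 2.36 in EpiLCs (SE 0.28, adjusted p = 5.97e-07). The difference between ESC-ASCs and ASCs was -0.12 (SE 0.17, adjusted p = 0.590), within the spread. ESC-ASCs exceeded EpiLCs by 0.62 (SE 0.18, adjusted p = 0.00609), which stayed under the fold threshold. AFSCs had 124, 161 and 191, and EpiSCs 448, 502 and 467.

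Reads of Eomes and of Gm33460, a gene on the opposite strand, cannot be told apart where they overlap, since the fragments were counted without regard to strand. The overlap is 118 bases, 2.84% of the Eomes exons. Gm33460 itself had 0 to 2 counts per sample in ESCs, 7 to 13 in ASCs, 21 to 29 in ESC-ASCs and 255 to 334 in EpiSCs, and its part in the Eomes values was not tested. In addition, 101 of the 4150 stretches of 50 bases in the Eomes exons also occur in transcripts of other genes, and fragments with several alignments were counted. No such stretch was found for T, Mixl1, Gsc, Mesp1, Tbx6 or Hand1.

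Mixl1 (chr1:180693043-180697034, minus strand), a homeobox factor of the streak that acts in endoderm and mesoderm formation, was a gene of the primed cultures. EpiSCs had levels of 69.8, 62.6 and 56.6 and AFSCs 14.1, 7.57 and 16.7. In the other 4 states no sample was above 4.63, a level of EpiLC replicate 2 that rested on 12 counts. Mixl1 passed the count minimum through that sample and the AFSC and EpiSC samples alone, so its rise from EpiLCs to AFSCs is a description. ASCs had 0.94, 2.26 and 0.96, and ESCs 1.72, 3.04 and 1.95, with overlap. AFSCs exceeded EpiLCs by 2.18 (SE 0.40, adjusted p = 0.000187), where 26.1% of all tested genes were called, and EpiSCs exceeded AFSCs by 2.27 (SE 0.29, adjusted p = 3.79e-06). The steps among EpiLCs, ESCs, ASCs and ESC-ASCs were 0.28, 0.72 and 0.77, with SEs of 0.56, 0.64 and 0.65, and none of these single steps was called. Over the whole span, EpiLCs exceeded ESC-ASCs by 1.77 (SE 0.55, adjusted p = 0.00913), a called change, although their samples overlapped.

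Evx1 (chr6:52313498-52318378, plus strand), a homeobox factor of the posterior streak that responds to BMP and Wnt, separated the 2 ABCL cultures. ASCs had levels of 12.0, 13.0 and 17.9, close to the 15.5, 17.8 and 17.2 of EpiSCs, whereas ESC-ASCs had 0.35, 0.17 and 0. These ESC-ASC levels rest on 2, 1 and 0 counts in the deepest samples of the series. ESCs had 1.37, 4.85 and 1.55, AFSCs 2.34, 4.83 and 3.60, and EpiLCs 0.40, 0.31 and 0.37. Every ASC sample lay above every sample of the other states except EpiSCs, with which it overlapped (difference of EpiSC over ASC 0.25, SE 0.29, adjusted p = 0.450, in a comparison with 42.4% of all tested genes called). Over the 3 samples each, 115 counts in ASCs faced 3 in ESC-ASCs, a ratio of 82.3 after scaling, with an exact 95% interval of 27.5 to 405 that covers counting error only. Between ASCs and AFSCs, the cells from which ASCs were made, Evx1 was higher in ASCs by 1.94 (SE 0.36, adjusted p = 0.000115).

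Among the ESCs, replicate 2 held 12 of the 18 Evx1 counts, and without it the rise from ESCs to ASCs went from 2.34 to 3.22 and that from ESCs to EpiSCs from 2.60 to 3.47. The antisense gene Evx1os shares 73 exonic bases with Evx1, 2.54% of its exons, and had 6 to 9 counts per sample in ASCs, 9 to 17 in EpiSCs and 0 in all ESC-ASC samples. Its part in the Evx1 values was not tested, since strand was not used in counting.

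The Evx1 promoter (RefSeq, GRCm38.p6, chr6:52313248-52313547, plus strand) is shown for its T-box word, since T, Eomes and Tbx6 among the genes described here are T-box factors. Capitals mark CACACCT, the reverse complement of AGGTGTG, 39 bases before the start. That T-box word was found in 5.8% of the 32851 windows, so a match is a description and not a binding site. Whether a T-box factor acts on Evx1 was not tested.
Evx1: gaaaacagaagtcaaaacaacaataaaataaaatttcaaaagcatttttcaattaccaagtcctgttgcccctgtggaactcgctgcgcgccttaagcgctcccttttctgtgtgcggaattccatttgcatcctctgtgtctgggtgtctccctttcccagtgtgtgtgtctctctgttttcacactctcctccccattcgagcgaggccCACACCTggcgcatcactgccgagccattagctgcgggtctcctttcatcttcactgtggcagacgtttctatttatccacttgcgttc

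Gsc (chr12:104471209-104473330, minus strand), the homeobox factor of the anterior streak and of the gastrula organizer, had the highest level of any of the 10 genes in EpiSCs, with 852, 710 and 974. It was also well expressed in naive ESCs, with 208, 166 and 190, above all AFSC samples (52.0, 44.7 and 47.4). In ABCL it was low, with 14.5, 36.0 and 23.4 in ASCs and 5.58, 7.71 and 6.74 in ESC-ASCs. EpiLCs had 3.64, 2.79 and 5.91. Every ESC sample lay above every sample of all states but EpiSCs. The fall from ESCs was -2.94 in ASCs (SE 0.23, adjusted p = 7.53e-09), -4.80 in ESC-ASCs (SE 0.25, adjusted p = 1.36e-11) and -5.49 in EpiLCs (SE 0.30, adjusted p = 1.2e-11). ASCs lay above ESC-ASCs, whose difference from them was -1.86 (SE 0.28, adjusted p = 2.76e-05). The ASC samples spread widely, from 17 to 44 counts, and without ASC replicate 2 the difference of ASCs from AFSCs passed the fold threshold, at -1.36 against -0.98 with all samples (without AFSC replicate 2 it was -1.03).

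Mesp1 (chr7:79792241-79793788, minus strand) and Mesp2 (chr7:79810727-79813439, plus strand) are related bHLH factors. Mesp1 acts in the first mesoderm of heart and vessels, and Mesp2 in the segmentation of somites. They lie 16.9 kb apart and share no stretch of 50 exonic bases. Mesp2 had levels of 11.4, 11.8 and 12.9 in ESC-ASCs, 4.44, 7.48 and 9.03 in ASCs and 0.59, 3.64 and 3.30 in EpiLCs. ESCs had 1.01, 0.60 and 1.72, EpiSCs 0.68, 0.45 and 1.47, and all 3 AFSC samples 0 counts. All 6 ABCL samples lay above all 12 others. As a description of a gene that was tested only because of its counts in ABCL, the fitted difference from ESCs was 2.54 in ASCs (SE 0.58) and 3.33 in ESC-ASCs (SE 0.51). ESC-ASCs stood above ASCs by 0.79 (SE 0.34, adjusted p = 0.0637), short of the threshold. Against AFSCs, the 38 counts of ASCs made Mesp2 at least 11.6-fold higher when 3 counts over the AFSC group are taken as the floor. The fitted difference of ASCs over EpiLCs was 1.37 (SE 0.46), where 34.8% of all tested genes were called.

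Mesp1 was counted in few samples. It had 7, 7 and 4 counts in ESC-ASCs, 0, 0 and 3 in ASCs, 2, 0 and 0 in EpiSCs and 0 in each of the 9 ESC, EpiLC and AFSC samples. Taken over the group, 18 counts against 0 made it at least 2.26-fold higher in ESC-ASCs than in ESCs, allowing for the depth of the ESC-ASC samples. Against the 3 counts of ASCs the ratio was 2.79, with an exact 95% interval of 0.816 to 14.8 that includes 1. Mesp1 was not tested across genes.

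Both promoters are shown because Mesp1 and Mesp2 had their highest counts in the same state, ESC-ASC, and both hold the T-box word. They are RefSeq windows of GRCm38.p6, at chr7:79793541-79793840 on the minus strand for Mesp1 and chr7:79810477-79810776 on the plus strand for Mesp2. The RefSeq start of Mesp1, at 79793590, lies 198 bases inside the gene as the count tables give it (start 79793788), so the Mesp1 window reaches into that gene model, and positions are counted from the RefSeq start. For T, Evx1 and Mesp2 both starts are the same. In Mesp1 the capitals mark TCAAAG and CTTTGA, the TCF/LEF word on either strand, 72 and 31 bases before the start, and CACACCT 7 bases after it. In Mesp2 the capitals mark the run AATCCACACCT, in which the FOXH1 word AATCCAC overlaps CACACCT, beginning 25 bases after the start. The FOXH1 word was found in 2.5% of the 32851 windows, and these matches too are a description and not binding sites. The promoter table also held Eomes, Gsc and Tbx6, in which none of these 3 words was found. Another word, the SMAD motif GTCTG, occurs in 49.6% of all windows and is in those of Evx1, Mesp1 and Tbx6, uncapitalised here.
Mesp1: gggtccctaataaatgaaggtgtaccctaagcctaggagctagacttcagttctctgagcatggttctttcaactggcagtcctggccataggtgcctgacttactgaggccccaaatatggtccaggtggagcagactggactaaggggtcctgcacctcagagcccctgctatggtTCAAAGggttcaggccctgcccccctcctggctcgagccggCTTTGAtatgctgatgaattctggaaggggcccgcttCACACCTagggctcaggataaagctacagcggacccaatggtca
Mesp2: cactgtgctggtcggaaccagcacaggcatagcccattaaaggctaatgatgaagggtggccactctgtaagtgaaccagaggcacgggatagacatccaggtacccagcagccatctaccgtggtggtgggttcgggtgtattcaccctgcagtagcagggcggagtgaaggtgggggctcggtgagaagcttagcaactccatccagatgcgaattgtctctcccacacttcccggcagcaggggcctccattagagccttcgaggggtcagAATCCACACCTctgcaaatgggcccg

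Tbx6 (chr7:126781483-126785560, plus strand), the T-box factor of presomitic mesoderm, had a count above 0 in all 18 samples but never more than 13. Mean levels ran from 1.99 in ESCs to 3.53 in ASCs, a narrow range beside that of the other genes. Its levels in EpiSCs (3.64, 3.42 and 3.17) and ESC-ASCs (2.24, 2.71 and 3.62) all lay above those of ESCs (2.18, 1.94 and 1.86), on 2 to 3 counts in ESCs. Foxf1 (chr8:121084386-121088144, plus strand), the forkhead factor of lateral plate and extraembryonic mesoderm, had at most 3 counts in any sample and 0 in 11 of 18. Its counts were 2, 1 and 3 in ESC-ASCs, the deepest samples, and 0 in all ESC samples. Neither gene was tested across genes.

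**Figure D2:**
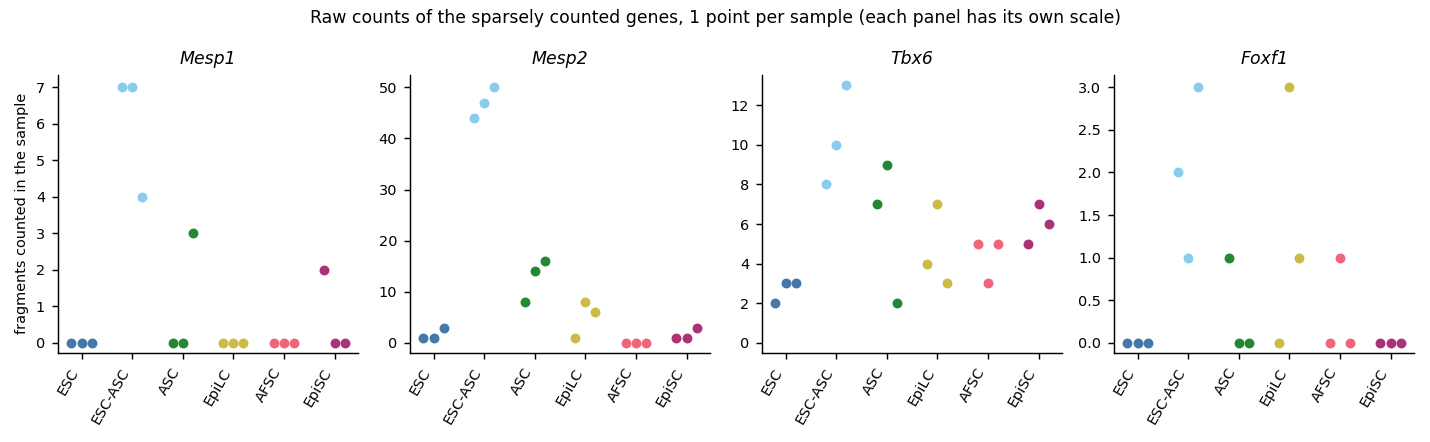
Raw counts of Mesp1, Mesp2, Tbx6 and Foxf1 in each of the 18 samples, by state, with a separate y axis for each gene. Mesp2 reaches 44 to 50 counts in the ESC-ASC samples, which are also the deepest, and 8 to 16 in ASCs, and Foxf1 never exceeds 3.

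Hand1 (chr11:57828705-57832818, minus strand), a bHLH factor of extraembryonic and lateral plate mesoderm, the heart and trophoblast giant cells, was counted mainly in ASCs. ASC levels were 33.5, 35.4 and 47.8, on 62, 68 and 87 counts, while no sample of another state had more than 7 counts or a level above 3.10. ESC-ASCs had 1.27, 0.49 and 0.50, AFSCs 1.35, 2.32 and 1.04, EpiLCs 0, 3.10 and 1.61, EpiSCs 0.66, 0.44 and 0, and ESCs 0.99, 0 and 0. Since Hand1 was tested only because of its ASC counts, its fitted differences are a description. They were 4.45 (SE 0.47) for ASCs over EpiLCs, the next state in the order, 4.56 (SE 0.49) for ASCs over AFSCs and -5.58 (SE 0.46) for ESC-ASCs minus ASCs. The 217 counts of ASCs against 1 in ESCs gave a ratio of 175 with an exact 95% interval of 31.1 to 6957. The fitted change of 7.09 became 9.43 without ESC replicate 1, which held that count, and 6.49 without ESC replicate 3. Below ASCs no neighbouring states differed by a called change, with 44.6% of all tested genes called between AFSCs and ESC-ASCs and 48.7% between EpiSCs and ESC-ASCs.

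Trophoblast markers were measured beside Hand1. The summed level of 12 such markers was 654 to 791 in ASCs, 172 to 199 in ESCs, 355 to 424 in ESC-ASCs and 1963 to 2583 in AFSCs. The keratins Krt8 and Krt18, which other epithelial cells express too, gave 1931 to 2545 of the AFSC sum. Without them, a choice made after the values were seen, the other 10 markers summed to 147 to 204 in ASCs, 189 to 211 in ESC-ASCs, 120 to 158 in ESCs and 23.1 to 46.4 in the other 3 states. The range of these 10 in ASCs lay above that in AFSCs and overlapped with those in ESC-ASCs and ESCs. Single markers differed in their order. Among markers picked after the values were seen, Esx1 (mean level 43.5) and Gata3 (13.6) were highest in ASCs. Cdx2 was highest in ESCs (94.9) and Ascl2 in ESC-ASCs (141). Of the 9 markers tested in ASCs against ESCs, 5 were higher and none lower, beside 18.5% and 7.26% of all tested genes, and their median change was 1.56 against 0.02 over all genes. They were Krt18 (4.21), Krt8 (3.39), Esx1 (3.07), Ascl2 (1.56) and Gata3 (1.43). Of the defining factors of trophoblast stem cells, Gata3 had a mean level of 13.6 in ASCs and 5.03 in ESCs, Cdx2 51.1 and 94.9, and Elf5 0.120 and 0.0660. Of the 12 markers, 1 had 0 counts in all ASC samples (Prl3d1). Feeder fibroblast markers summed to 106 to 152 in ASCs and 46.5 to 107 in ESCs. The part of either cell type in the Hand1 values was not tested.

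ASCs were set against naive ESCs first, since the study asks what distinguishes the 2 kinds of cell. Of the 7 tested genes, Eomes, Evx1, Mesp2 and Hand1 were higher in ASCs, Gsc was lower, and T and Mixl1 were not called. Mesp2 and Hand1 were tested only because of their ABCL counts, so the number of higher genes supports nothing by itself. The Evx1 change was 2.34 (SE 0.39, adjusted p = 6.69e-05). Over all tested genes 25.8% were called, 18.5% higher and 7.26% lower. In ESC-ASCs against ESCs, Eomes and Mesp2 were again higher and Gsc lower, but Evx1 was lower, at -3.72 (SE 0.67, adjusted p = 9.84e-05), and Mixl1 too, at -1.49 (SE 0.62, adjusted p = 0.0441). The background there was 36.4%, made up of 19.3% higher and 17.1% lower. Both comparisons use the same 3 ESC samples. The Evx1 difference, 3 counts against 18 in ESCs, corresponds to a ratio of 15.9 with an exact interval of 4.65 to 84.5, and its log2 value was -2.84 without ESC replicate 2 and -4.45 without ESC-ASC replicate 1. The Mixl1 call was lost without any one of 8 samples, for example without ESC replicate 2 (-1.18, adjusted p = 0.203) or ESC-ASC replicate 1 (-1.21, adjusted p = 0.119), and when no filter on low counts was used (-1.44, adjusted p = 0.0593).

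The direct test of ESC-ASCs against ASCs, 2 cultures in the same medium, called 3 of the 7 genes, all lower in ESC-ASCs: Evx1 (-6.06, SE 0.49, adjusted p = 1.38e-08), Hand1 and Gsc. Hand1 was tested only because of its ASC counts, so its place among the 3 is a description. The 2 cultures differ in the cells they came from and in sequencing depth, and the labels give no line or passage. These differences cannot be told apart. Over all genes 24.5% were called, 8.04% higher and 16.5% lower. Without ESC-ASC replicate 1 the Evx1 change was -6.79. T was lower in every ESC-ASC sample as well, by a log2 change of -0.79 (SE 0.23, adjusted p = 0.0083), under the fold threshold. Eomes and Mesp2, which rose from ESCs in both cultures, did not differ between them by a called change.

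**Figure D3:**
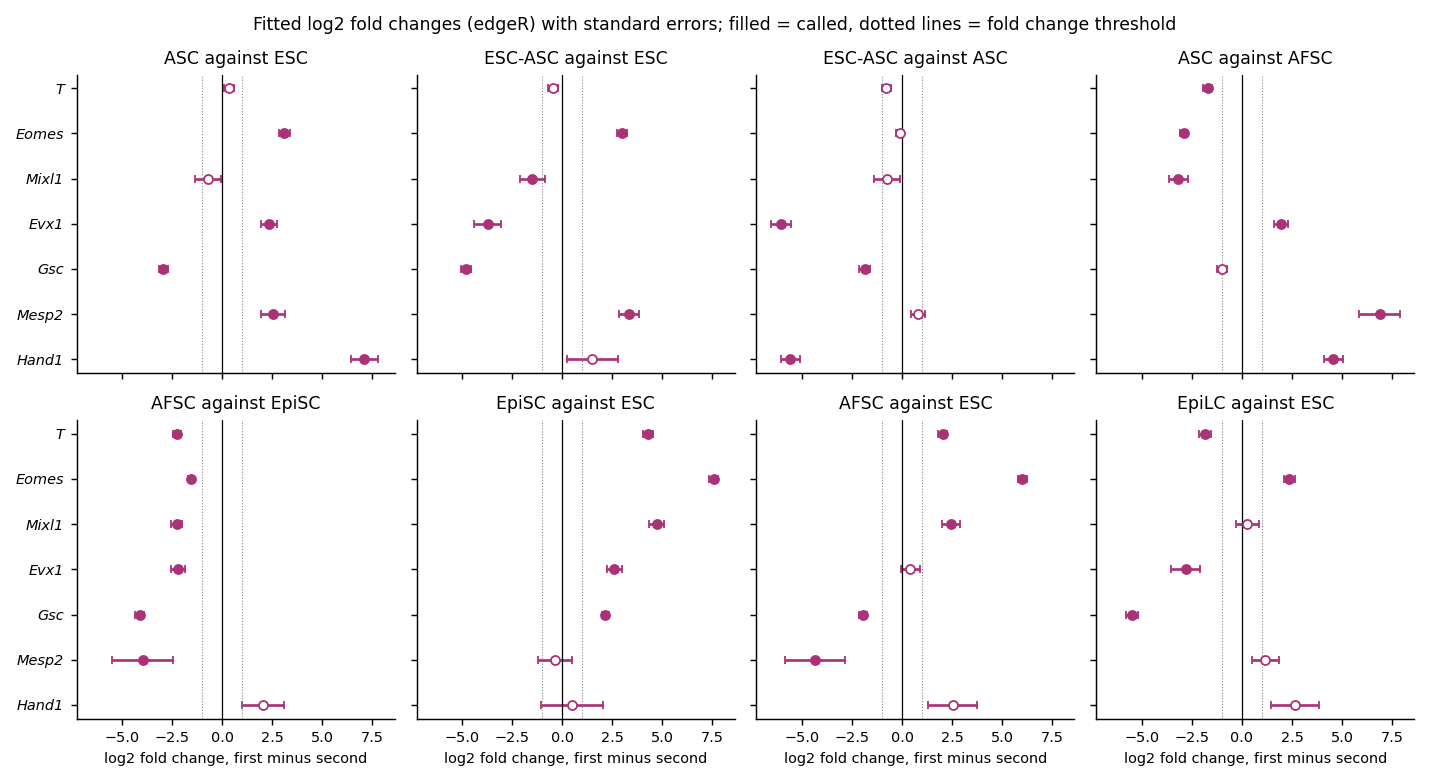
Fitted log2 fold changes of the 7 tested genes with their standard errors in 8 comparisons, first state minus second, filled where called. The panels for ASC against ESC and ESC-ASC against ESC put Evx1 on opposite sides of 0 (2.34 and -3.72) and Eomes on the same side (3.11 and 2.99). Values for Mesp2 against AFSCs depend on the fit, since AFSCs had 0 counts.

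From AFSCs to ASCs, 3 of the 7 genes rose (Evx1, Mesp2 and Hand1) and 3 fell, T by 1.71 on the log2 scale (SE 0.22, adjusted p = 2.03e-06), Eomes by 2.91 (SE 0.17, adjusted p = 5.65e-11) and Mixl1 by 3.18 (SE 0.46, adjusted p = 8.15e-06). Among all genes 39.4% were called, 22.7% higher in ASCs and 16.7% lower. Mesp2 and Hand1 were tested only because of their ABCL counts, and Mixl1 only because of AFSCs, EpiSCs and EpiLC replicate 2. Their changes are a description, so the numbers of genes that rose and fell support nothing by themselves. The genes that rose had at most 12 counts in any AFSC sample, and those that fell had at least 15. For Mesp2, Hand1 and Mixl1 the count minimum fixed much of this split, so it is a description as well.

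The 2 primed cultures differed in 6 of the 7 genes, all lower in AFSCs than in EpiSCs, where 20.8% of all tested genes were called, 12.6% higher and 8.19% lower. T was lower by a log2 change of -2.26 (SE 0.20, adjusted p = 4.56e-08), Eomes of -1.56 (SE 0.15, adjusted p = 1.7e-07), Evx1 of -2.19 (SE 0.35, adjusted p = 5.77e-05) and Gsc of -4.12 (SE 0.21, adjusted p = 3.11e-11). The sixth, Mesp2, rests on 0 counts against 5, at least 1.46-fold. Its adjusted p of 0.0462 rose above 0.05 without any one of 11 samples, up to 0.147 without EpiSC replicate 3, and with DESeq2 (0.0771). The summed level of 10 endoderm markers was also higher in EpiSCs, at 253 to 274, beside 93.4 to 119 in AFSCs and 21.6 to 31.2 in ESCs. Foxa2 alone had a mean level of 153 in EpiSCs and 90.5 in AFSCs. Of the 7 markers tested in AFSCs against EpiSCs, 4 were lower and 1 was higher (Dab2, 1.51). In EpiSCs against ESCs, 4 were higher and 3 lower, beside 19.0% and 22.0% of all tested genes. The part of endoderm in the values of Eomes, Mixl1 and Gsc, which endoderm precursors express too, was not tested.

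Set against naive ESCs, EpiSCs had 5 of the 7 genes higher and none lower, beside a background of 41.0%, with 19.0% higher and 22.0% lower. Eomes rose by 7.57 and Evx1 by 2.60 (SE 0.38, adjusted p = 7.22e-06). T rose by 4.29 (SE 0.23, adjusted p = 8.47e-12), Mixl1 by 4.73 (SE 0.38, adjusted p = 2.44e-09) and Gsc by 2.16 (SE 0.19, adjusted p = 7.39e-09). Mixl1 was tested only because of its counts in AFSCs, EpiSCs and EpiLC replicate 2. Its change from ESCs in either primed culture, and its place in the numbers of higher genes, are thus a description. AFSCs had 3 higher (T, Eomes and Mixl1) and 2 lower (Gsc and Mesp2), beside 39.5% (19.9% higher and 19.6% lower). There Gsc was lower by a log2 change of -1.96 (SE 0.21, adjusted p = 1.52e-07), so that Gsc was higher than in ESCs in 1 primed culture and lower in the other. Mesp2 in AFSCs was at least 1.89-fold lower than in ESCs, on 0 counts against 5, and its call was lost without ESC replicate 3 (adjusted p = 0.0770).

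EpiLCs against ESCs had 1 gene higher (Eomes) and 3 lower, with a background of 34.0%, of which 3049 genes were higher and 2690 lower. T fell by 1.86 on the log2 scale (SE 0.31, adjusted p = 3.88e-05) to the lowest level of all states, and Gsc fell by the 5.49 given above. Evx1 had 3 counts against 18, a ratio of 7.77 with an exact interval of 2.27 to 41.2. The fitted Evx1 change of -2.81 (SE 0.71, adjusted p = 0.00243) was -1.93 (adjusted p = 0.0695) without ESC replicate 2. Of all 35 steps between neighbouring states in the orders of the 7 genes, 16 were called and 19 were not. In the comparisons these steps come from, 20.8% to 48.7% of all tested genes were called. The orders were set by the same levels, and the called steps include descriptive ones of Hand1, Mesp2 and Mixl1. The number therefore supports nothing by itself.

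For the signals that induce the streak, the mRNA of their genes was measured in the same samples, but not the signals themselves. A list of 13 genes held their ligands and the Nodal co-receptor, 12 of them were tested, and 8 were higher and none lower in ASCs than in ESCs. The share of all genes was 18.5% higher and 7.26% lower there, and the median change of the 12 was 1.63, against 0.02 over all genes. The co-receptor Tdgf1 rose by 1.80 (SE 0.17), and Bmp4 by 3.04 to a mean level of 55.6. Wnt5a had 140 counts in ASCs against 1 in ESCs, a ratio of 113 with an exact interval of 19.97 to 4499, and Wnt8a had 81 against 3, a ratio of 21.8 (7.20 to 108). Bmp2, with 61 against 3 counts, gave 16.4 (5.36 to 81.9). Fgf5, the primed epiblast ligand, had 5 counts in ASCs and 0 in ESCs, at least 1.35-fold. In ESC-ASCs against ASCs, 6 ligands were lower and none higher, among them Wnt3 (-2.12), Wnt5a (-4.68), Wnt8a (-4.50) and Nodal (-1.68). Of all genes, 8.04% were higher and 16.5% lower there, and the medians were -1.47 for the ligands and -0.05 for all genes. Tdgf1 (0.00) and Bmp4 (-0.36) were not called.

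EpiSCs had 7 of the 12 ligands higher than ESCs and 3 lower, against 19.0% and 22.0% of all genes, with a median change of 2.87 against -0.04. Fgf8 rose by 9.20 (SE 0.36) to a mean level of 2211, the highest of any ligand in EpiSCs, and Wnt8a had 1671 counts against 3, a ratio of 428 (146 to 2079). Fgf5 was at least 1497-fold higher, on 5842 counts against 0. It passed the count minimum through EpiLC, AFSC and EpiSC samples alone, so its bound and its place among the 7 are a description. Gdf3, a ligand of the Nodal pathway, fell by 7.10 (SE 0.29).

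Among 9 inhibitors and feedback genes of those signals, all tested, 2 were higher in ASCs than in ESCs and none lower, beside 18.5% and 7.26% of all genes, with medians of 0.82 and 0.02. Lefty2, a Nodal inhibitor, rose by 1.04 (SE 0.20), and Nog, a BMP inhibitor, had 31 counts against 2, a ratio of 12.5 (3.19 to 108). ESC-ASCs had 6 of the 9 lower than ASCs and none higher (16.5% and 8.04% of all genes, medians -1.43 and -0.05), including Dkk1 (-5.82) and Axin2 (-1.43), both induced by Wnt signals, and Smad7 (-2.43), induced by activin and BMP signals. EpiSCs had 6 higher than ESCs and 3 lower (19.0% and 22.0% of all genes, medians 2.63 and -0.04). Cer1, a Nodal and BMP inhibitor of the anterior endoderm, was at least 148-fold higher there, on 579 counts against 0. It passed the count minimum through the primed cultures alone, so its bound and its place among the 6 are a description. Fst rose by 5.46 (SE 0.27) and Chrd by 3.14 (SE 0.36), while Lefty2 fell by 3.64 (SE 0.23).

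Of 25 other streak and mesoderm transcription factors, 14 were tested, and 6 were higher and 1 lower in ASCs than in ESCs, where 18.5% and 7.26% of all genes were. The median change was 0.62, against 0.02 over all genes. Msx2 rose by 4.21 (SE 0.37), Msx1 by 3.09 (SE 0.34), Foxc1 by 2.62 (SE 0.70) and Tcf15 by 2.43 (SE 0.39). Msx1 and Msx2 are textbook BMP targets. In ESC-ASCs these 4 genes were lower than in ASCs, Msx2 by a log2 change of -3.57 and Msx1 of -2.59, and so were Cdx1, Cdx2 and Sp5, giving 7 lower and 1 higher (Foxc2, 1.81). Foxc2 passed the count minimum through ESC-ASCs alone, so its rise there is a description. All genes had 16.5% lower and 8.04% higher, and the medians were -1.05 for the list and -0.05 for all genes. EpiSCs had 4 higher than ESCs and 6 lower (19.0% and 22.0% of all genes, medians -0.77 and -0.04). Lhx1, a factor of the anterior streak and organizer like Gsc, had 623 counts in EpiSCs against 2, a ratio of 239 (66.0 to 1982). It passed the count minimum through the primed cultures alone, so its ratio and its place among the 4 are a description. Gata6 rose by 4.20 (SE 0.40) and Cdx2 fell by 4.67 (SE 0.35). Foxc2 had 0 counts against 5 in ESCs, at least 2.17-fold lower.

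Genes of mesoderm derivatives were mixed. Of 17, 14 were tested, with 7 higher and 3 lower in ASCs than in ESCs, beside 18.5% and 7.26% of all genes, and a median change of 1.44 against 0.02. Dll1, the Notch ligand of presomitic mesoderm, rose by 4.30 (SE 0.40), the atrial myosin light chain Myl7 by 3.56 (SE 0.42), the blood factor Runx1 by 2.69 (SE 0.40) and the cadherin Cdh2 by 2.02 (SE 0.32). ESC-ASCs had 4 of the 14 higher than ASCs and 5 lower, against 8.04% and 16.5% of all genes (medians -0.36 and -0.05). Dll1 was higher by 4.14, to a mean level of 157 against 8.97 in ASCs and 0.491 in ESCs. EpiSCs had 8 higher than ESCs and 3 lower (19.0% and 22.0% of all genes, medians 3.05 and -0.04). Dll1 rose by 5.83 (SE 0.35), Cdh11 by 5.51 (SE 0.35) and Lmo2 by 4.63 (SE 0.37), and the blood factor Gata2 had 2 counts against 151, a ratio of 98.2 (26.7 to 818) in favour of ESCs.

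**Figure D4:**
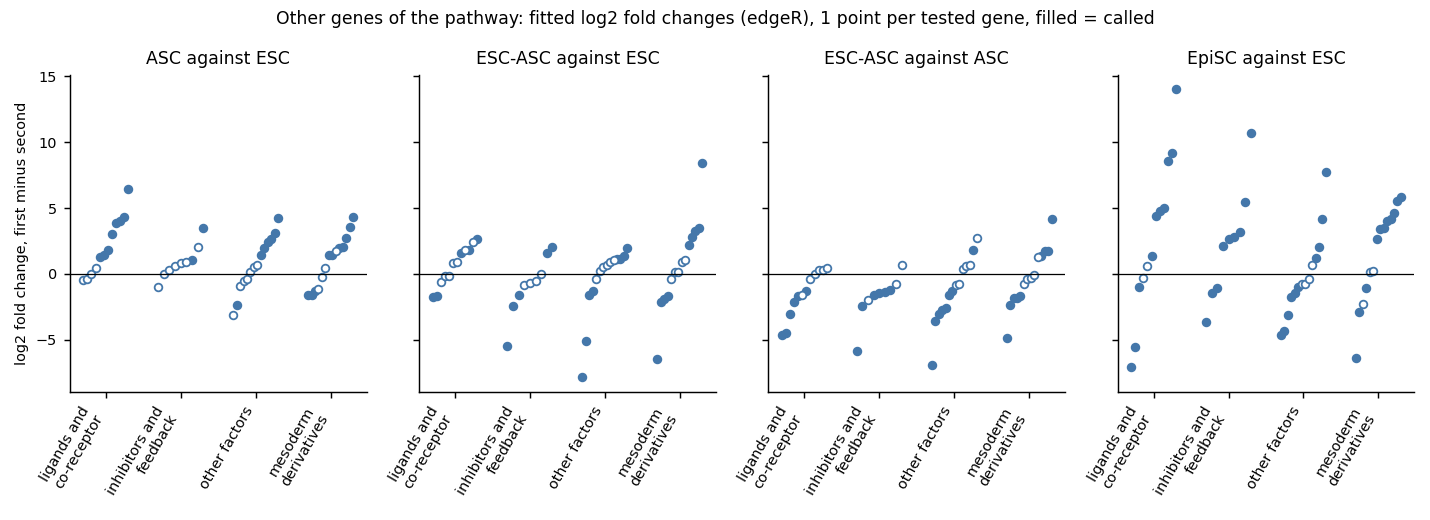
Fitted log2 fold changes (y axis) of the tested genes of 4 pathway lists (x axis) in 4 comparisons, 1 point per gene in ascending order, filled where called. In ASC against ESC, 8 of 12 ligands are called higher and none lower, and in ESC-ASC against ASC, 6 are called lower and none higher. Points with 0 counts in 1 state, such as Fgf5 in ESCs, depend on the fit.

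The genes whose patterns were most like those of the 7 tested genes were found by Pearson's r of log2 CPM (counts scaled to library size) over the 18 samples, which share 6 states of 3 replicates each and are not 18 independent conditions. T was most like Meis1 (r = 0.966), Phc2 (0.961) and Anxa6 (0.960), and Eomes like Add2 (0.987), Top2b (0.985) and Dpysl5 (0.983). Mixl1 was most like Nsmaf (0.975), Cer1 (0.967) and Pmepa1 (0.954). Cer1 is the inhibitor described above, which was also highest in EpiSCs. Evx1 was most like Nedd9 (0.937), Tpcn1 (0.932) and Spry2 (0.919), Gsc like Gnai2 (0.944), Plcl2 (0.938) and Jaml (0.929), and Mesp2 like Clmn (0.948), Ppargc1b (0.938) and Acsl1 (0.938). Hand1 had the weakest likeness of the 7, with Gm12789 (0.889), Ctf2 (0.888) and Abca3 (0.888).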

How the data were processed

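Polyadenylated RNA of 18 mouse stem cell samples (6 culture states, 3 replicates each) was sequenced as paired reads from directional libraries. Per the labels and the file headers, the authors used TopHat2 with the gene models of Ensembl release 86 to align reads to GRCm38/mm10, and featureCounts 1.5.0-p1 to count the fragments on exons (minimum overlap 10 bases). Fragments with several alignments and those overlapping several genes were counted, and no strand setting was used. The deposited values are these raw counts, 1 table per sample.

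From the counts, the genes that reached 10 counts in 3 or more samples (16901 of 35773) were tested with edgeR 4.0.16 (R 4.3.3): TMM scaling, 1 fit over all 18 samples with a term per state, robust quasi-likelihood F test, Benjamini-Hochberg adjustment over all tested genes of a comparison. A call needed an adjusted p below 0.05 and a log2 fold change beyond 1. SEs were derived from the F statistic. Levels were counts divided by the DESeq2 1.42.0 size factor and exonic length in kb. Where a group had 3 counts or fewer, ratios were given with exact 95% binomial intervals, or a bound was taken with 3 counts over the group as floor. Both cover counting error only. The pipeline was tested on simulated counts. Promoter windows, their motifs and exon overlaps were handled with Python 3.11.15.

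All 10 genes were named. From each pathway list the text names up to 4 called genes with the largest change in ASC against ESC and in EpiSC against ESC. Trophoblast markers were named by this rule for ASC against ESC only. For each tested gene the 3 most like it are named. Genes named from these lists for other comparisons were chosen after their values were seen. So were Tdgf1, Bmp4, Gata3, Cdx2, Elf5, Prl3d1 and the genes named from the endoderm and neural markers. The 10 genes and the lists were chosen with earlier results of these data known. Some list genes passed the count minimum through certain states alone, such as Cer1, Lhx1, Fgf5, Foxc2 and Sox10. They had to be higher there, so those calls and their places in list numbers are a description. Alternatives were RLE scaling, no filter (26105 genes tested), a stricter filter (13752 genes), DESeq2, a replicate block, other thresholds, a fit of 2 states only, leaving out each sample and, added after the data were seen, leaving out replicate 1 of 4 states. No label ties same-numbered samples together. Of 45 same-numbered pairs of samples from different states, 18 but not all had deviations correlated above 0.1 (range -0.161 to 0.393), so they were not treated as paired. Among the 6 pairs of replicate 1 of ASC, AFSC, EpiLC and ESC, 5 were above 0.1, and the labels give no batch. No 2 samples held identical values.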

Additional observations from a re-analysis of the deposited data

Results flagged for a closer look

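For 3 genes the change from naive ESCs differed between the 2 cultures in ABCL medium, by the test of ESC-ASCs against ASCs in edgeR. The change in ESC-ASCs minus the change in ASCs was -6.06 for Evx1, -5.58 for Hand1 and -1.86 for Gsc on the log2 scale, with adjusted p of 1.38e-08, 1.93e-08 and 2.76e-05. Hand1 was tested only because of its counts in ASCs, so its value is a description. In each case all 3 ESC-ASC samples lay below all 3 ASC samples. The changes share the same ESC samples, so only the direct difference was tested.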

How the results depend on the processing

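Set against its main value, a count of called genes stayed within 1.5 times in 61 of 71 pairs of count and other setting. It did so in all 162 pairs of count and left-out sample. That band is wide for such small counts. Without 1 sample, 3 to 6 genes were called in EpiLC against ESC and 4 to 6 in AFSC against ESC. With the stricter filter, under which 4 of the 10 genes were tested, 2 were called in ASC against ESC, 3 in ESC-ASC against ESC, 1 in ESC-ASC against ASC and 3 in ASC against AFSC. With the thresholds of the study (log2 fold change over 2 and a minimum level), 3 were called in ESC-ASC against ESC, 3 in ASC against AFSC, 3 in AFSC against ESC and 2 in EpiLC against ESC, and 7 of the steps between neighbouring states. Fitting only the samples of ESC-ASC and ESC called 3. Fewer genes tested or stricter thresholds account for the first 2 sets by construction, and the cause of the last was not tested. Of 295 fold changes in other settings, 4 lost their call and none turned its sign. The replicate block lost 1 call, Mixl1 in ESC-ASC against ESC (-1.48, adjusted p = 0.0563), and changed no other. Of 1008 fold changes without 1 sample, 976 kept their direction and side of the threshold, 21 lost a call, 7 gained one and 4 changed sign. Those that changed sign were uncalled: Mesp2 (-0.997 to 0.19) and Hand1 (-0.11 to 2.82) in EpiSC against ESC, and Mixl1 (-0.43 to 0.61) in EpiLC against ESC. Hand1 was called higher than in ESCs without ESC replicate 1, in AFSCs (4.86) and EpiLCs (4.98), and without EpiLC replicate 1 (2.53 and 3.13), and Mesp2 in EpiLCs without EpiLC replicate 1 (1.56). Without replicate 1 of ASC, AFSC, EpiLC and ESC, Mesp2 lost its call in AFSC against EpiSC (adjusted p = 0.0522) and Hand1 gained 2. Mesp1, Tbx6 and Foxf1 had at most 13 counts in any sample, the deepest included, and were not tested.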

Other observations

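The mRNA of signal genes was also measured in AFSCs and EpiLCs, and the genes named here were chosen after their values were seen. In AFSCs against ESCs, 8 of 12 tested ligand genes were higher and 2 lower, beside 19.9% and 19.6% of all genes. In EpiLCs 6 were higher and 1 lower, beside 3049 and 2690 of all 16901 genes. The medians were 2.96 and 0.95, against -0.03 and 0.06 over all genes. Fgf5 passed the count minimum through EpiLC, AFSC and EpiSC samples alone, so its place in both numbers is a description. Wnt8a had a mean level of 897 ± 341 (SD, n = 3) in AFSCs, 324 ± 9.07 in EpiSCs and 103 ± 10.6 in EpiLCs, against 0.974 ± 1.16 in ESCs. The Nodal inhibitor Lefty1 had 3998 ± 701 in AFSCs, 2670 ± 324 in EpiLCs and 1107 ± 49.1 in EpiSCs, against 159 ± 43.8 in ESCs. Dll1 and Dll3, Notch ligands of presomitic mesoderm, had 73.8 ± 5.86 and 74.8 ± 10.2 in EpiLCs, where T was at its lowest. In ESC-ASCs Dll1 was at 157 ± 14.7 and Dll3 at 4.25 ± 0.938.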
